A study of Homo sapiens with 9 samples.

Results

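The 4 histone marks H3K4me3, H3K27me3, H3K9me3 and H3R8me2a were compared with each other within WT BEAS-2B cells, using the islands (stretches of enriched sequence called from ChIP-seq reads) of the 4 WT libraries. These held 59578 of the 141489 islands in all 8 island sets, and they were chosen only by the library name that each island carries. BEAS-2B is an immortalized line of human bronchial epithelial cells. The WT cells were colonies that had been transfected with the CRISPR-Cas9 vector against mdig (RIOX2) and selected with blasticidin but still made the protein, and mdig KO colonies without it formed the other group. Cells of both genotypes grew in the same medium with serum and blasticidin, and there were 9 libraries, namely 4 marks in each genotype and an input of the WT cells. The number of colonies behind a library is not given in the sources used. As every mark had 1 library, no comparison below has a replicate check or a test, and an exact 95% interval on a share of islands covers counting error only. An island gives a position and no read count, so the depth behind it is unknown.

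As background, H3K4me3 is laid down at active or poised promoters by the SET1 and MLL complexes. H3K27me3 is the product of Polycomb repressive complex PRC2 and covers silent developmental genes, often as wide domains, and promoters that carry it with H3K4me3 are called bivalent. H3K9me3, made by SETDB1 and the SUV39H enzymes, marks heterochromatin and the clusters of KRAB zinc finger genes. H3R8me2a, asymmetric dimethylation of arginine 8 on histone H3, lies next to lysine 9 and is far less studied than the other marks.

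Promoters that carry the different combinations differ in sequence, so 1 example of each of 7 states is shown first, picked after its values were seen. The stretch is the 250 bases before the annotated start on the gene's strand in GRCh37 (the same coordinates as hg19), with each CpG dinucleotide in capitals. VIM (vimentin, chr10:17269990-17270239, plus strand) and ZEB1 (a repressor of epithelial genes, chr10:31607174-31607423, plus strand) stand for H3K4me3 with H3R8me2a and for H3K4me3 alone. KRT5 (the basal cell keratin 5, chr12:52914315-52914564, minus strand) carried H3K27me3 alone. ZNF595 (chr4:52930-53179, plus strand) and ZSCAN18 (chr19:58629795-58630044, minus strand), both zinc finger genes, carried H3K4me3 with H3K9me3 and H3K9me3 alone. EDN2 (endothelin 2, chr1:41950355-41950604, minus strand) carried H3R8me2a alone, and PTPRC (the leukocyte antigen CD45, chr1:198607337-198607586, plus strand) carried none of the marks.
VIM: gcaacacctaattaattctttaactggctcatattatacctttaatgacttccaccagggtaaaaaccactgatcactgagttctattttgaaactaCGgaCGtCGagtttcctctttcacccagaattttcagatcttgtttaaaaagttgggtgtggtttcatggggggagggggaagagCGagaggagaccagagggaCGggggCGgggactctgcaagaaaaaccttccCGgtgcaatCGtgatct
ZEB1: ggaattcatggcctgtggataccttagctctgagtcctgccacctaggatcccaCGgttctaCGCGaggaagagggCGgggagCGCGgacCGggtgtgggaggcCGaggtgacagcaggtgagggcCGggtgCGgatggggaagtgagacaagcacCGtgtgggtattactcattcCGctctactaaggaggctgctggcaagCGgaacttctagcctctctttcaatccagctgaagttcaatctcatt
KRT5: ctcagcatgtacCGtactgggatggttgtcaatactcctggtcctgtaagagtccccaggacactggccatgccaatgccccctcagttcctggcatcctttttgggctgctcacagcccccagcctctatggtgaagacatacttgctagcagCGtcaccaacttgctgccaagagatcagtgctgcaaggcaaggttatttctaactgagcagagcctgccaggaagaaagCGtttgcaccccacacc
ZNF595: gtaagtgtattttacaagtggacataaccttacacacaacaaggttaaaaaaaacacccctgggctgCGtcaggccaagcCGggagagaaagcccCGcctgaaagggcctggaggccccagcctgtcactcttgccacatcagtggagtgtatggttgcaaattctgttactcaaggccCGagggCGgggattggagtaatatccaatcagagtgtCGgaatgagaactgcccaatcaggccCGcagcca
ZSCAN18: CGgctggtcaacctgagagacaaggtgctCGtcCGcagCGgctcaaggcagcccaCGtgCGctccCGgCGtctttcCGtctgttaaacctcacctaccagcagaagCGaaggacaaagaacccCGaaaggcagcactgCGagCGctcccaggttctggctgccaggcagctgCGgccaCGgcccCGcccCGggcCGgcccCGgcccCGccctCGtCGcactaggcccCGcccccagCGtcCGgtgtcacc
EDN2: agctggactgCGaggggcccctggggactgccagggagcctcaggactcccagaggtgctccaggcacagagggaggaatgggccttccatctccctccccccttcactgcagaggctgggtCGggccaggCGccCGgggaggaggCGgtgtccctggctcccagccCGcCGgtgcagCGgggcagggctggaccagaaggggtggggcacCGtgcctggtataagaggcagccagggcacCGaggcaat
PTPRC: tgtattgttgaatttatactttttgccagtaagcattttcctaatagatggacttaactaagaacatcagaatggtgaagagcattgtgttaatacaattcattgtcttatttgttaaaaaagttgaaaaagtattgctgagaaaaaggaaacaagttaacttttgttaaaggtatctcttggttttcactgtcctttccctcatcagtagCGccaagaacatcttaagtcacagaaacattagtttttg
The CpG count in these 250 bases was 8 in VIM, 13 in ZEB1, 3 in KRT5, 7 in ZNF595, 25 in ZSCAN18, 10 in EDN2 and 1 in PTPRC. Over all 20132 promoters with known sequence the median was 14, with 20 for H3K4me3 with H3R8me2a, 20 for H3K4me3 with H3K27me3, 18 for H3K4me3 alone, 14 for H3K4me3 with H3K9me3, 6 for H3K27me3 alone, 6 for H3K9me3 alone, 5 for H3R8me2a alone and 3 for promoters without any mark. Some examples therefore lie far from the median of their states. ZSCAN18, with 25, lies above the 90th percentile of H3K9me3 alone (22). VIM, with 8, lies well below the median of its state but above the 10th percentile (6). The other examples lie between the 10th and 90th percentiles of their states. The letters TATAAA, searched on the gene's strand from 40 to 16 bases before the start, occurred in 2.96% of all promoters, in 1.1% of those with H3K4me3 alone, in 5.82% of those with H3K27me3 alone and in 6.11% of unmarked promoters.

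The marks took up very different amounts of the genome. H3K27me3 covered 256.1 Mb in 23394 islands (8.96% of known bases), H3K4me3 88.82 Mb in 17219 islands (3.11%), H3R8me2a 62.35 Mb in 6871 islands (2.18%) and H3K9me3 52.76 Mb in 12094 islands (1.85%). Together they covered 412.5 Mb, or 14.4% of known bases, and 11.2% of the marked bases held 2 or more marks. Islands were widest for H3R8me2a by the median (6.8 kb) and for H3K27me3 by the mean (10.9 kb), against medians of 6.4 kb for H3K27me3, 4.6 kb for H3K4me3 and 3.4 kb for H3K9me3. Domains of 10 kb or more held 69.1% of the H3K27me3 bases and 60.1% of the H3R8me2a bases, but 19.4% for H3K4me3 and 18.0% for H3K9me3. The sequence under the islands had 32.1 CpG per kb for H3K4me3, 24.5 for H3R8me2a, 15.2 for H3K27me3 and 12.5 for H3K9me3, against 9.85 in the genome.

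The longest islands lay over different kinds of genes. The longest of H3K27me3 spanned 377.2 kb over RBFOX3, which encodes the neuronal splicing factor NeuN, and ENGASE, followed by 315.4 kb over CUX2, a homeobox factor of upper cortical neurons, and 299.0 kb over the HOXC cluster. For H3K9me3 the longest, 57.8 kb on chromosome 15, overlapped no protein-coding gene, and the next were over ZNF544 (51.4 kb) and over ZNF10, ZNF140 and ZNF891 (49.6 kb). H3R8me2a reached 94.6 kb over RXRA, the retinoid X receptor, 72.4 kb over SLC12A7, a potassium-chloride cotransporter, and 70.6 kb over ROPN1L. The longest H3K4me3 islands ran across dense groups of short genes, 58.8 kb over 8 genes on chromosome 17, among them ALYREF, MAFG and SIRT7, and 57.6 kb around ANAPC2 and SSNA1 on chromosome 9. The third, 46.8 kb, lay over NBPF1, a member of a multicopy family whose reads may be shared among copies.

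By location, the share of bases at promoters was 16.7 times that of the genome for H3K4me3, 9.08 times for H3R8me2a, 1.96 times for H3K27me3 and 0.765 times for H3K9me3. Windows of 2 kb on both sides of the start of 20136 protein-coding genes make up 2.54% of known bases and held 42.4% of the H3K4me3 bases and 23.1% of the H3R8me2a bases, but 4.98% for H3K27me3 and 1.94% for H3K9me3. In islands, 61.8% of H3K4me3 (exact 95% interval 61.0 to 62.5) and 61.6% of H3R8me2a (60.4 to 62.7) lay within 2 kb of a start, against 15.4% of H3K27me3 (15.0 to 15.9) and 4.54% of H3K9me3 (4.18 to 4.93). A larger share of the H3R8me2a bases than of the H3K4me3 bases lay in introns (47.8% against 35.7%) and in exons (10.2% against 7.93%). In Mb, H3K4me3 covered more of both, 31.7 against 29.8 Mb of intron and 7.05 against 6.39 Mb of exon. Intergenic sequence, 38.4% of the genome, held 39.6% of the H3K27me3 bases and 35.3% of the H3K9me3 bases, but 13.4% for H3R8me2a and 8.91% for H3K4me3. Of the H3K27me3 islands 50%, and of the H3K9me3 islands 55.2%, lay over 50 kb from any coding start.

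At promoters, H3K4me3 was present at 13033 of 20136 (64.7%), H3R8me2a at 5532 (27.5%), H3K27me3 at 4082 (20.3%) and H3K9me3 at 575 (2.86%), where 1 base of overlap within 2 kb of the start counts as present. All 16 possible combinations occurred, but 5 of them held most promoters. H3K4me3 alone was found at 5991 (29.8%), H3K4me3 with H3R8me2a at 5010 (24.9%), no mark at 4422 (22%), H3K27me3 alone at 2250 (11.2%) and H3K4me3 with H3K27me3 at 1435 (7.13%). The rarer states were H3K4me3 with H3K27me3 and H3R8me2a at 255 promoters (1.27%), H3K4me3 with H3K9me3 at 253 (1.26%), H3K9me3 alone at 164 (0.814%) and H3R8me2a alone at 151 (0.75%). The combination H3K27me3 with H3K9me3 was found at 63 promoters (0.313%), H3K4me3 with H3K9me3 and H3R8me2a at 60 (0.298%), H3K27me3 with H3R8me2a at 47 (0.233%) and H3K4me3 with H3K27me3 and H3K9me3 at 26 (0.129%). The other 3 states held 3 promoters each (0.0149%). Promoters with all 4 marks were those of C1orf159, ASS1 (argininosuccinate synthase of the urea cycle) and PPDPF.

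**Figure D1:**
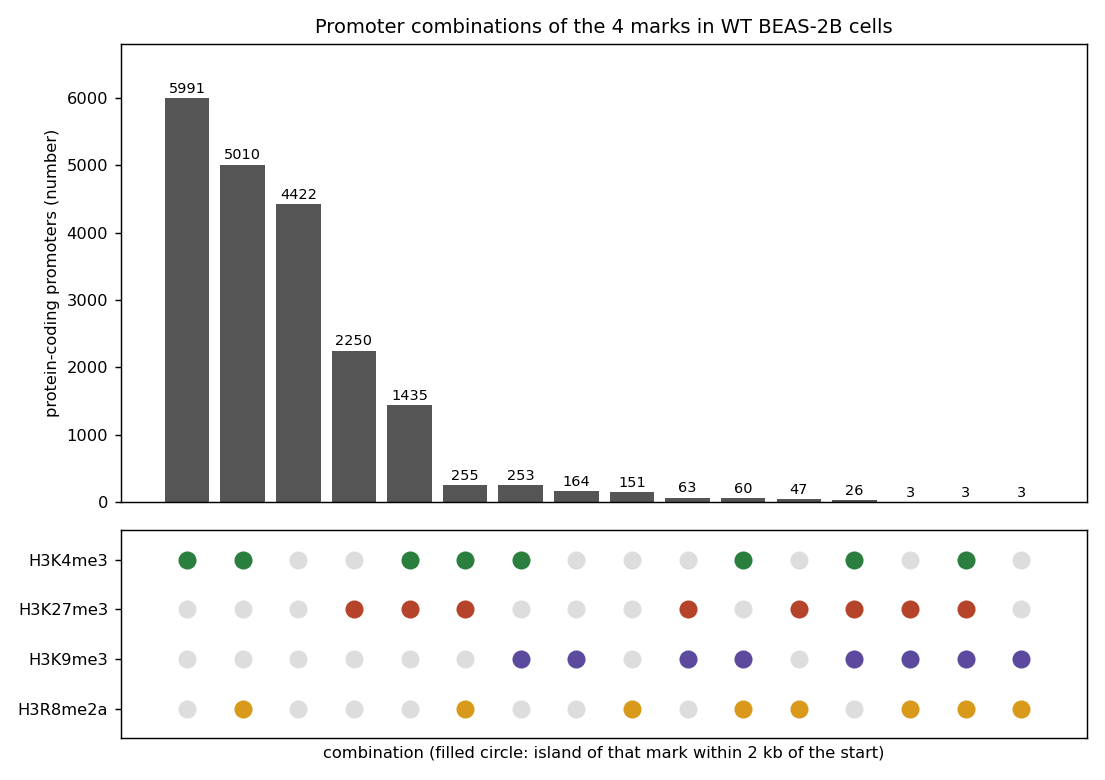
Number of protein-coding promoters (y axis) with each combination of the 4 marks, where coloured circles mark the islands present within 2 kb of the start and grey circles those absent. The 5 tallest bars hold between 1435 and 5991 promoters, and none of the other 11 exceeds 255.

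H3R8me2a at promoters was nearly always accompanied by H3K4me3. Of its 5532 promoters, 5328 also carried H3K4me3 (96.3%, or 26.5% of all promoters), which is 1.49 times the number that the single shares give, and the islands shared at least 1 base in 5318 of them. Relative to expectation, the pair that met least was H3K27me3 and H3R8me2a, at 308 promoters (1.53%) or 0.275 times, followed by H3K9me3 and H3R8me2a at 69 (0.343%, 0.437 times). H3K4me3 and H3K27me3 shared 1719 promoters (8.54%, 0.651 times), which is 42.1% of all H3K27me3 promoters. H3K9me3 met H3K4me3 at 342 promoters (1.7%, 0.919 times) and H3K27me3 at 95 (0.472%, 0.815 times). Promoters rich in CpG (at least 50% GC and a CpG ratio of at least 0.6 in the 1 kb around the start) carried H3K4me3 in 89.3% of 11608 cases, against 31.3% of 8524 other promoters. H3K4me3 accompanied 4347 of 4367 H3R8me2a promoters that were CpG-rich and 981 of 1165 that were not. The ratios to expectation, 1.11 and 2.69, cannot be set against each other, since the high share of H3K4me3 in CpG-rich promoters leaves little room above 1. H3K27me3 and H3R8me2a met 0.257 times as often as the single shares give in the CpG-rich promoters and 0.378 times in the rest. For H3K4me3 and H3K9me3 the ratio was below 1 in the CpG-rich promoters (247, 0.846 times) and above 1 in the rest (95, 1.22 times).

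Counted over bases of the whole genome, with the expectation built chromosome by chromosome from the shares that the marks covered there, H3K4me3 and H3R8me2a shared 31.6 Mb, or 11.6 times expected, and this was 50.7% of all H3R8me2a bases. Within bins of 1 Mb, which take account of gene-rich regions, the ratio was 4.83. H3K27me3 and H3R8me2a shared 3.05 Mb (0.397 times), H3K4me3 and H3K9me3 0.958 Mb (0.467 times), H3K9me3 and H3R8me2a 0.772 Mb (0.538 times) and H3K4me3 and H3K27me3 6.9 Mb (0.709 times). H3K27me3 and H3K9me3 shared 5.47 Mb, which is 0.992 times expected. Seen from the islands, 78.6% of the H3R8me2a islands (77.6 to 79.5) overlapped H3K4me3, 31.2% of the H3K4me3 islands (30.5 to 31.9) overlapped H3R8me2a, and 10.5% of the H3K9me3 islands (9.98 to 11.1) overlapped H3K27me3. The H3R8me2a bases outside all other marks, 28.1 Mb, had 16.4 CpG per kb, against 31.8 where the mark lay together with H3K4me3 alone.

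H3K4me3 islands with H3R8me2a were wider than those without. At promoters the median width of the H3K4me3 island was 7.4 kb with H3R8me2a, 5.0 kb with H3K4me3 alone, 4.0 kb with H3K9me3 and 3.6 kb with H3K27me3. Of 517 H3K4me3 promoters with an island of up to 2 kb, 5 had H3R8me2a (0.967%), and the share was 8.67% of 2642 for islands over 2 and up to 4 kb, 31.7% of 4128 up to 6 kb, 56.0% of 2813 up to 8 kb, 70.5% of 1897 up to 12 kb and 84.1% of 1036 beyond 12 kb. H3K27me3 ran the other way, from 40.4% of the narrowest class to 6.58% at 6 to 8 kb, and stood at 9.07% beyond 12 kb. H3K9me3 was present at 4.06% of the narrowest and 0.869% of the widest. Wider islands also have more chance to meet another island, and the part of that in these shares was not tested.

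**Figure D2:**
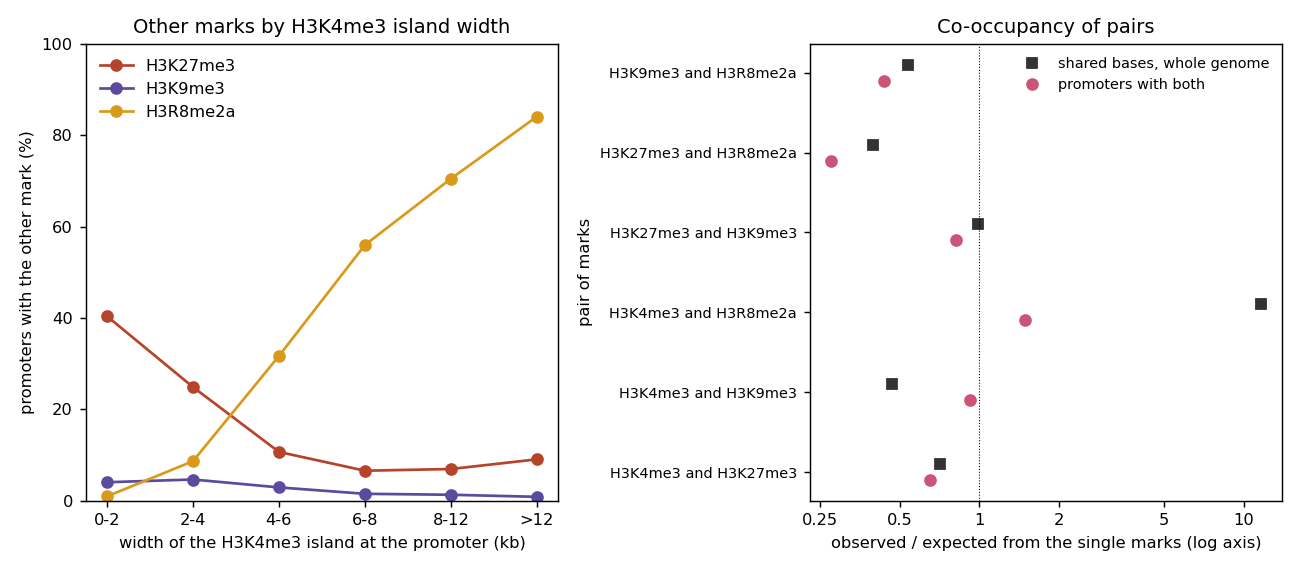
Left, share of H3K4me3 promoters (y axis, percent) that also carried each other mark, by the width of the H3K4me3 island (x axis, kb). Right, observed over expected overlap for each pair of marks on a log axis, over bases (squares) and promoters (circles). H3R8me2a climbs from 0.967% to 84.1% with width, and the pair H3K4me3 and H3R8me2a is the only pair above 1 on either scale.

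Around the start the marks had different shapes. H3K4me3 covered 62.4% of all starts and was highest 0.5 kb into the gene, and H3R8me2a was highest 1.0 kb into the gene (25.0%, against 23% at the start). In promoters with H3K4me3 and H3R8me2a the latter rose from 85.0% at the start to 92.0% at 1.0 kb downstream. In bivalent promoters H3K27me3 was highest 2.0 kb upstream (79.5%) and lower at the start (71.6%), where H3K4me3 covered 91.6%. Where H3R8me2a was present as well, H3K27me3 was at 81.2% 2.0 kb upstream, 45.9% at the start and 50.6% 1.5 kb downstream, and H3R8me2a was at 52.5%, 69.4% and 83.5% at the same positions, so that both marks lay on both sides of the start with their highest values on opposite sides. In promoters with H3K4me3 and H3K9me3, H3K9me3 covered 31.6% of starts and 68.4% of the positions 2.0 kb downstream, and was still at 53.0% 10 kb into the gene. H3K27me3 alone formed a broad plateau, 89.6% at the start, 51.5% 10 kb upstream and 57.9% 10 kb downstream. The classes were defined by overlap within 2 kb, so the values of the class marks near the start and the 0% of the other marks there follow in part from that definition.

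**Figure D3:**
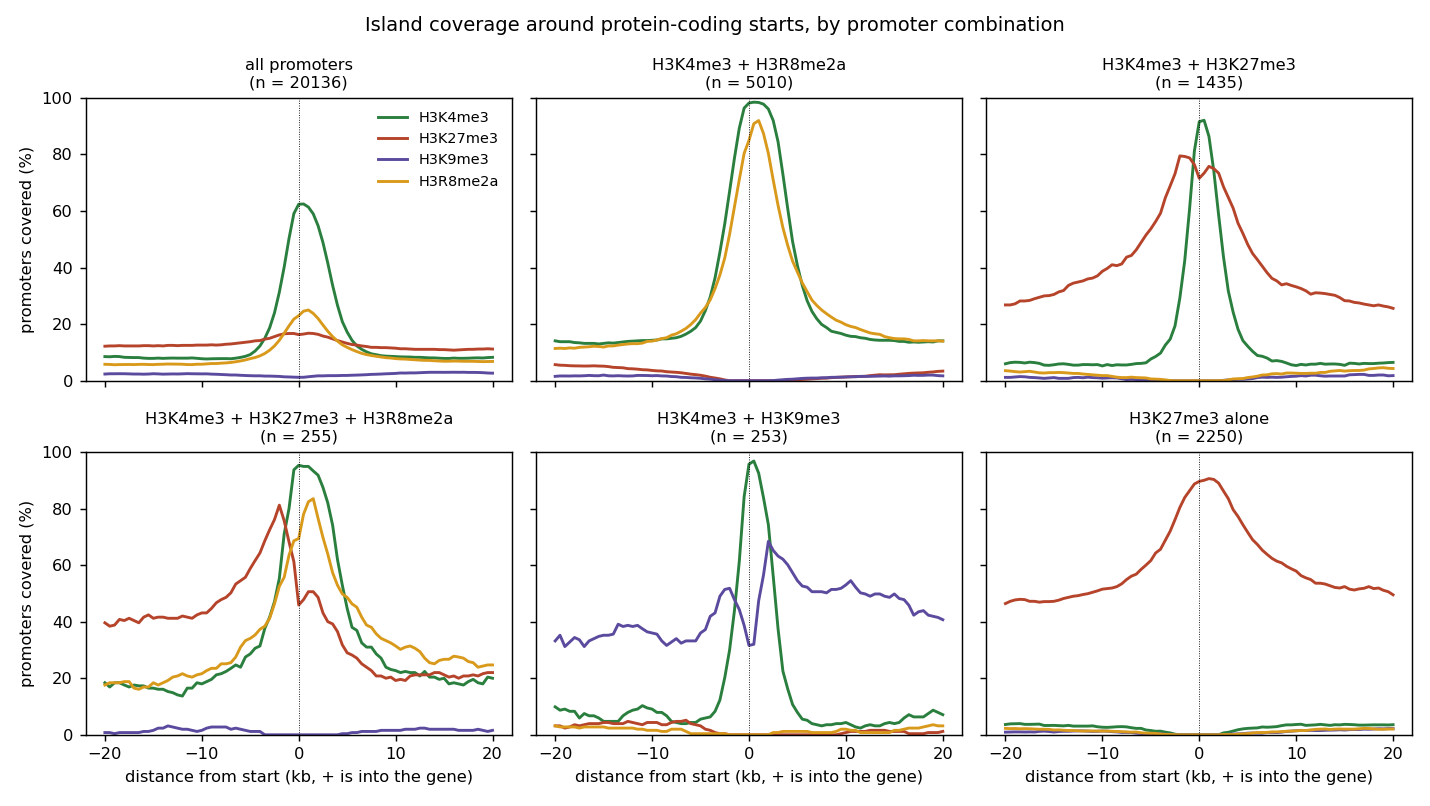
Share of promoters covered by islands of each mark (y axis, percent) against distance from the start (x axis, kb, positive into the gene), for all promoters and 5 combinations. H3K27me3 and H3K9me3 dip at the start where H3K4me3 is present, to 71.6%, 45.9% and 31.6% in 3 of the panels, and H3R8me2a peaks 1.0 to 1.5 kb into the gene.

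The combinations also differed in gene architecture. A coding neighbour starting on the other strand within 1 kb upstream was present for 16.5% of promoters with H3K4me3 and H3R8me2a, 11% with H3K4me3 alone and 6.48% of bivalent promoters, against 1.69% with H3K27me3 alone, 0.814% without marks and 8.45% of all. Among genes over 10 kb, those with H3K27me3 alone at the promoter had on average 55.3% of the body covered by the mark. Long genes with H3K4me3 and H3K9me3 had 49.8% of the body under H3K9me3, and genes with H3R8me2a alone 41.4% under H3R8me2a. Long bivalent genes had 26.9% of the body under H3K27me3. At the gene end, H3K27me3 was present for 65.7% of all genes with H3K27me3 alone at the promoter and 35.6% of bivalent genes. Neighbouring genes share islands, so genes are not independent of each other in any of these counts.

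Genes used by every cell carried H3K4me3, with H3R8me2a at many of them. Ribosomal protein genes carried H3K4me3 at 76 of 81 promoters (93.8%, against 64.7% of all) and H3R8me2a at 64 (79.0%, against 27.5% of all), and 2 carried H3K27me3. RPL8, for example, lay in an H3K4me3 island of 10.2 kb and an H3R8me2a island of 8.2 kb. The share with H3R8me2a was lower in the other lists of this kind, 38 of 77 respiratory chain subunits, 21 of 39 proteasome subunits, 17 of 34 aminoacyl-tRNA synthetases and 32 of 61 splicing factors, although H3K4me3 was at 73, 35, 32 and 60 of them (89.7% to 98.4%). Among all promoters with H3K4me3, 40.9% carried H3R8me2a. Replication-dependent histone genes had H3K4me3 at 55 of 64 (85.9%), H3R8me2a at 24, H3K9me3 at 4 (H3C6, H4C8, H2AC14 and H2BC14) and H3K27me3 at 0.

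H3K27me3 lay on regulators of development. It was at 36 of 39 HOX promoters (92.3%, against 20.3% of all) and at 112 of 134 other homeobox and PAX genes (83.6%). The HOX genes, which set position along the body axis, were split between H3K4me3 with H3K27me3 at 19, among them HOXA6, HOXA9, HOXB6 and HOXC9, and H3K27me3 alone at 14, among them HOXC10, HOXD10 and HOXD13. HOXB4, HOXB5 and HOXB9 carried H3K4me3, H3K27me3 and H3R8me2a, and 1 further HOX gene carried H3K4me3 with H3R8me2a and no H3K27me3. HOXB2 carried H3K4me3 alone, and HOXB1 carried none. The joined bodies of the HOX genes lay under H3K27me3 for 87.8% of their length and under H3K4me3 for 34.5%, and H3K9me3 was at 0 of 39 promoters. WNT ligands carried H3K27me3 at 14 of 19, 8 of them with H3K4me3 and no other mark, such as WNT5A and WNT11, and 3 with H3R8me2a as well (WNT3A, WNT9A and WNT10A). The mark was also at 34 of 65 forkhead and SOX factors, 32 of 69 axon guidance genes, 37 of 60 voltage-gated channel genes and 51 of 90 neurotransmitter receptors. These lists differed in H3K4me3, which was at 52 of the 69 axon guidance genes but 22 of the 60 channel genes and 26 of the 90 receptors.

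H3K9me3 at promoters was most frequent in protocadherin and zinc finger genes among the lists. Zinc finger genes on chromosome 19 carried it at 133 of 251 promoters (53.0%, against 2.86% of all) and those on other chromosomes at 56 of 276. H3K4me3 was at 202 and 236 of these genes, and the most frequent state with H3K9me3 was H3K4me3 with H3K9me3 and no other mark, at 92 genes on chromosome 19 and 40 elsewhere. Along the chromosome 19 genes H3K9me3 rose from 22.7% of positions near the start to 63.7% late in the gene body, while H3K4me3 went from 77.3% to 4.38% at the same places. The bodies of the chromosome 19 genes hold 0.269% of known bases and 6.16% of all H3K9me3 bases, and the zinc finger genes of other chromosomes hold a further 4.26%. Clustered protocadherins, cell adhesion proteins of neurons encoded as tandem variable exons on chromosome 5, carried H3K9me3 at 31 of 53, of which 22 had no other mark and 9 had H3K4me3, and H3R8me2a at 0. Without chromosome 19, 401 of 18656 promoters carried H3K9me3 (2.15%) and 142 carried it with H3K4me3 alone.

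Most promoters of families used in few tissues lacked H3K4me3. Of 414 olfactory receptors 322 had no mark, against 22% of all promoters, and 86 had H3K27me3 (20.8%, close to the 20.3% of all promoters). Keratin-associated proteins of hair had H3K27me3 at 31 of 94 (33.0%), 7 of them with H3K9me3, and H3K4me3 at 0. Keratins carried H3K27me3 at 24 of 55 (43.6%) and H3K4me3 at 5, and cytochrome P450 genes carried H3K27me3 at 27 of 56 (48.2%) and H3K4me3 at 16. Imprinted genes were spread over the states, with H3K27me3 at IGF2, KCNQ1 and DLK1, H3K9me3 at PEG3, ZIM2 and MAGEL2, and H3K4me3 at PEG10 and GRB10. Enzymes that write or erase lysine methylation carried H3K4me3 at 44 of 50, with H3R8me2a at 20. RIOX2, the gene targeted in the KO cells, had an H3K4me3 island of 3.0 kb and no other mark. The members named in these classes were chosen after their values were seen.

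**Figure D4:**
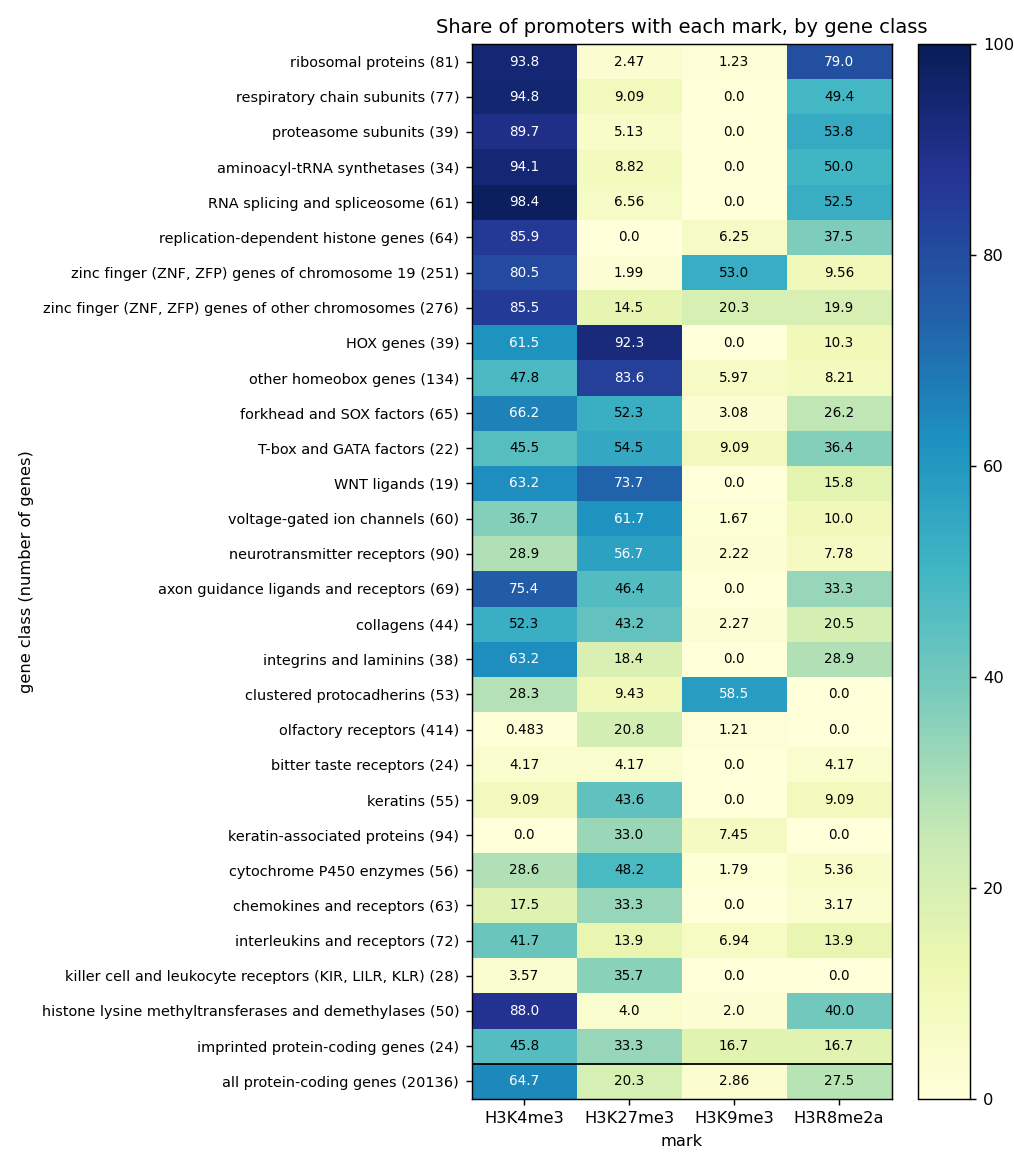
Share of promoters with each mark (colour and printed value, percent) in gene classes of 19 or more genes (rows, with the number of genes), with all protein-coding genes in the last row. HOX and homeobox genes lead for H3K27me3 at 92.3% and 83.6%, protocadherins and zinc finger genes of chromosome 19 for H3K9me3 at 58.5% and 53.0%, and ribosomal proteins for H3R8me2a at 79.0%.

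The label of the cells as bronchial epithelium was set against marker genes, which showed a mixed picture. Keratins of simple epithelia, KRT7, KRT8 and KRT18, and the epithelial factor ELF3 carried H3K4me3 with H3R8me2a. The annotated 5′ end of KRT8 (chr12:53343738) lies beside the start of KRT18 (chr12:53342655), so both windows hold the same islands. Other starts of KRT8 were not looked at here. E-cadherin (CDH1) carried H3K4me3 and H3K27me3 in islands with the same ends, 2.2 kb each, ESRP1, an epithelial splicing regulator, was likewise bivalent, EPCAM carried H3K4me3 alone, and KRT19, GRHL2 and CLDN4 had no mark at the annotated start. Of the basal airway markers KRT5 and KRT14 carried H3K27me3 alone, TP63 had no mark at its annotated start, NGFR had H3K4me3, H3K27me3 and H3R8me2a, and ITGA6 and DLK2 had H3K4me3 alone. Secretory markers MUC5AC, MUC5B and BPIFA1 carried H3K27me3 and SCGB1A1 carried none. Of the ciliated markers FOXJ1 had H3K4me3, H3K27me3 and H3R8me2a, PIFO had H3K4me3 and H3K27me3, CCDC78 had H3K4me3 alone and TPPP3 had none. The alveolar markers had H3K4me3, H3K27me3 and H3R8me2a at SFTPC, H3K4me3 alone at ABCA3, H3K27me3 alone at SFTPA1 and none at SFTPB. All 9 mesenchymal markers carried H3K4me3, 8 of them with H3R8me2a (VIM, CDH2, FN1, COL1A1, ZEB2, SNAI2, TWIST1 and THY1) and ZEB1 without, and H3K27me3 was at 0 of 9. Of all promoters, 64.7% carried H3K4me3, 24.9% carried it with H3R8me2a and no other mark, and 20.3% carried H3K27me3. Lists as short as these markers give only a rough share. Of the leukocyte markers described here, CD68 carried H3K4me3 with H3R8me2a, CD3E carried H3K27me3 alone and PTPRC and LYZ carried none, and both endothelial markers found in the annotation (CDH5 and VWF, of 3) carried none. An island shows a mark and not expression, and the share of cells that carry it cannot be read from it.

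**Figure D5:**
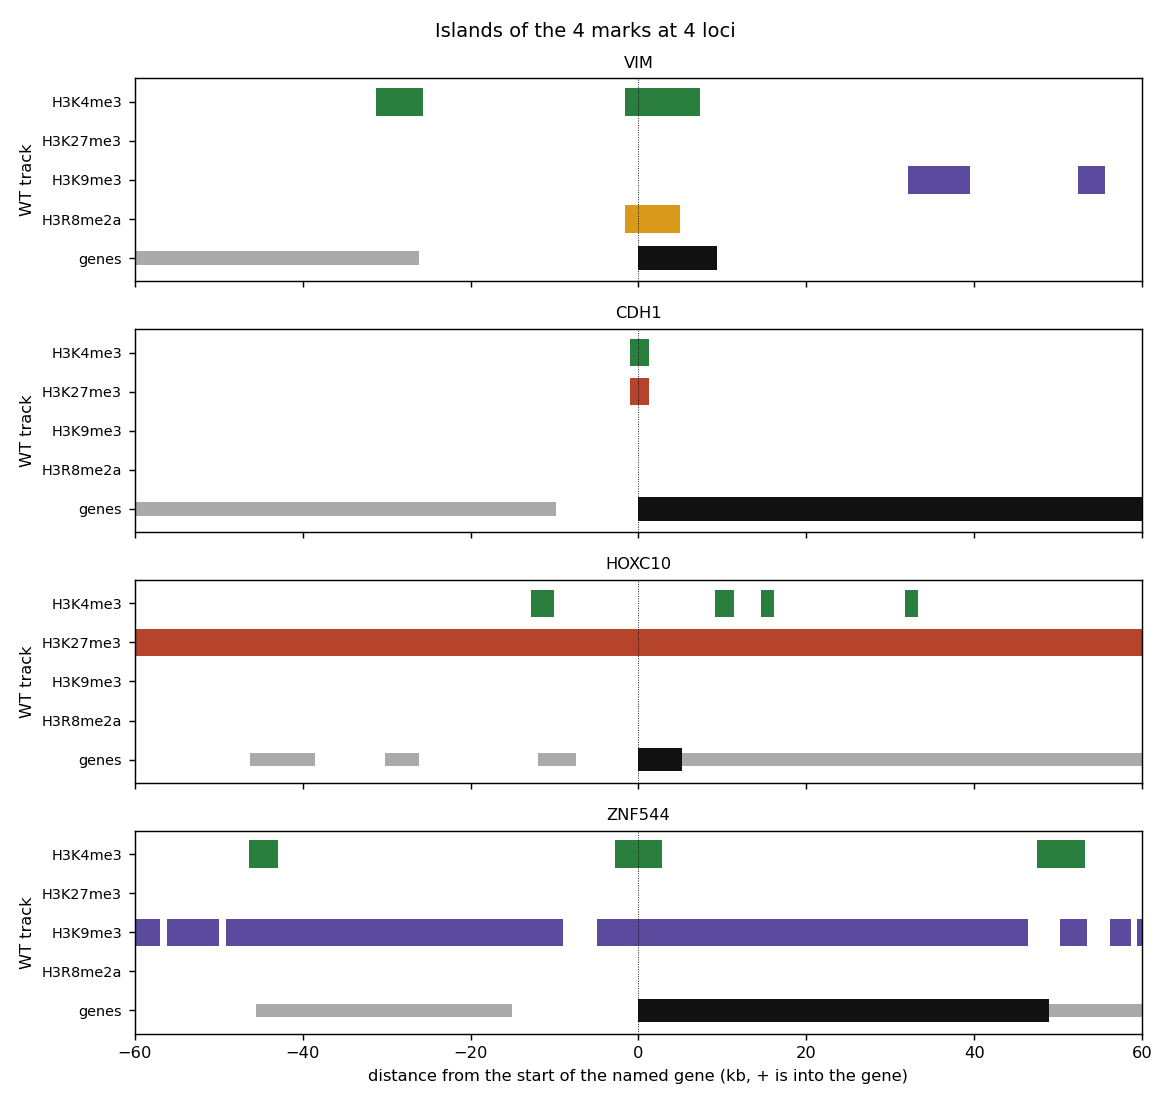
Islands of each mark (coloured bars) and protein-coding genes (black for the named gene, grey for others) within 60 kb on both sides (x axis, kb) of the starts of VIM, CDH1, HOXC10 and ZNF544. VIM shows H3K4me3 and H3R8me2a beginning together, CDH1 matching islands of H3K4me3 and H3K27me3, HOXC10 the 299.0 kb H3K27me3 island, and ZNF544 a 51.4 kb H3K9me3 island with H3K4me3 of 5.6 kb at the start.

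Examples by rule (the 3 genes of each state with the most covered bases within 10 kb of the start) show how far a state can reach. For H3K4me3 alone, CCDC78, EFNA4 and the read-through EFNA4-EFNA3 had 20 kb under it. The last 2 also had 8.6 kb of H3R8me2a beyond the promoter window. For H3K27me3 alone so many genes had the full 20 kb that the rule named AARD, ABCC8 and ABO by the alphabet. HOXB3 and HOXB6 had all 20 kb under both H3K4me3 and H3K27me3, with 7.33 and 7.25 kb of H3R8me2a beyond the promoter window. Their annotated 5′ ends lie side by side on the minus strand (chr17:46682274 and chr17:46682354), so both windows describe the same locus. ITGA3, the integrin alpha 3 chain, CHMP6 and ACTL10 had 20 kb under both H3K4me3 and H3R8me2a, and CHMP6 also had 2.4 kb of H3K27me3. SLC12A7 had 20 kb under H3K4me3, H3K27me3 and H3R8me2a alike, in islands of 25.6, 118.0 and 72.4 kb, and it was followed by the neighbours TMC8 and TMC6. ZNF595 had 20 kb of H3K9me3 and 8.6 kb of H3K4me3, and PCDHGB7 and PCDHGA10 had 18.2 kb of H3K9me3 with 8.4 and 7.95 kb of H3K4me3. ZSCAN18 had 20 kb of H3K9me3 with no other mark, ANHX had 19 kb, and PCDHGB6 had 18.4 kb with 2.99 kb of H3K4me3 beyond the promoter window. For H3R8me2a alone, EDN2 had 20 kb under it and 0 kb under the others. TNNI2, the fast skeletal troponin I, had 20 kb under H3K27me3 and H3R8me2a together, followed by its neighbour LSP1 with 19.9 and 19.2 kb. H3K27me3 lay with H3K9me3 at ACTRT2 (20 and 15.0 kb), ADAMTS2 (19 and 15.5 kb) and SLC6A3, the dopamine transporter (20 and 13.0 kb). In the state of H3K4me3 with H3K9me3 and H3R8me2a, TAS1R3, part of the sweet and umami taste receptors, had 20, 5.8 and 20 kb, followed by ZNFX1 and USF1. The state of H3K4me3 with H3K27me3 and H3K9me3 was led by COMMD5 with 8.6, 9.72 and 17 kb, followed by PRDM16 and PAX3.

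All 4 marks shared bases in 6 segments of the genome, 10.6 kb in all. The longest, 3.4 kb, lay at the 3′ end of TTC34, followed by 2.8 kb at AATK, 2.0 kb at MORN1, 1.2 kb on chromosome 5 with no coding gene within 2 kb, 1.0 kb at WNT9A and 0.2 kb at ASS1. Here the distance of 2 kb is to any part of a gene and not to its start. The promoter of TTC34 carried H3K27me3 and H3K9me3 only. The WNT9A segment lay inside the gene, and the promoter of WNT9A carried no H3K9me3.

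Chromosomes differed more in H3R8me2a and H3K9me3 than in H3K4me3 at promoters. H3K4me3 was at 47.4% of promoters on chromosome X and 50.7% on chromosome 21, and at 57.6% to 70.8% on the others. H3R8me2a accompanied 68.4% of the H3K4me3 promoters on chromosome 22, 57.3% on chromosome 17 and 56.8% on chromosome 20, but 19.3% on chromosome 14, 19.6% on chromosome 4 and 23.8% on chromosome X. H3K9me3 was at 11.8% of the promoters of chromosome 19 and 7.25% of those of chromosome 5, and at 0.607% to 5.24% elsewhere. H3K27me3 was at 36.9% of promoters on chromosome 20 and at 13.7% on chromosome 4. DNA copy number was not analysed here, and its part in these values was not tested. Over 2846 bins of 1 Mb from the same libraries, the covered share of H3K4me3 and H3R8me2a had a Spearman's rho of 0.833, and that of H3K27me3 and H3K9me3 a rho of 0.0242. Both H3K4me3 and H3R8me2a moved with the number of coding genes in the bin (0.847 and 0.688).

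In KO cells, with 1 library per mark and islands called in the same way, H3K4me3 and H3R8me2a shared 43.8 Mb (8.62 times expected). H3K27me3 and H3K9me3 shared 53.7 Mb there (2.0 times). The WT values were 31.6 Mb (11.6 times) and 5.47 Mb (0.992 times). H3K9me3 had 32264 islands in KO cells and 12094 in WT cells. Its expected overlap with H3K27me3 was 26.8 Mb in KO and 5.51 Mb in WT cells, so the shared Mb cannot be compared directly. Other forms of the expectation were computed for WT cells only, where they put this pair at 0.817 and 1.15.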

How the data were processed

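ChIP-seq was run on WT and mdig KO BEAS-2B cells with 1 library per mark and genotype and 1 WT input. Reads of 75 nt were mapped to hg19 by the authors (BWA), lengthened to 200 bp and thinned to the smallest sample of a group, and islands were called per library. The tools in the submitters' processing notes are BWA and SICER 1.1, and the caller's settings are not given in the sources used here. In the file the deposited values are positions of islands on a 200 bp grid, with no read count, height or p-value, so the depth is unknown.

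WT islands were placed on GENCODE 44 genes mapped to GRCh37, taking 1 record per symbol and its 5′ end, with Python 3.11.15, numpy 2.4.6 and matplotlib 3.10.9. Sequences are from GRCh37. A mark was present at 1 base of overlap within 2 kb of a start. Expected promoter counts multiply single shares, and expected bases multiply covered shares per chromosome. A recount of promoters with bedtools 2.31.1 matched for all 4 marks, and the interval code was tested on simulated data. No test was run, because each mark has 1 library. Genes were named as the coding genes under the 3 longest islands of each mark, the 3 genes with the most covered bases within 10 kb in each combination of at least 10 genes, the cell type markers, and examples of classes. The members and lists were chosen with earlier results of these data known.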

Additional observations from a re-analysis of the deposited data

How the results depend on the processing

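No paired analysis was possible because each mark has 1 library in WT cells, and no library could be left out. Of 152 values recomputed under other choices, 118 stayed within 1.5 times the reported one (or, for shares of islands, within the interval) and 34 moved further. A window of 5 kb gave 909 promoters with H3K9me3, and 425, 154 and 54 for H3K4me3 with H3K27me3 and H3R8me2a, with H3K9me3 and H3R8me2a, and with H3K27me3 and H3K9me3. A window of 1 kb gave 28 and 17 for the last pair of states, and any transcript start gave 385, 135 and 59 for the same 3 states. Asking for 50% of the window gave 246 promoters with H3K9me3, 864 bivalent promoters, and 82, 7 and 6 for the same 3 states, with 78 for H3K4me3 with H3K9me3, 39 for H3K27me3 with H3K9me3 and 31 for H3K27me3 with H3R8me2a. Promoters of 1 kb on both sides, a smaller part of the genome, held 24.0% of H3K4me3, 2.52% of H3K27me3, 0.906% of H3K9me3 and 12.7% of H3R8me2a bases. Expectation within 1 Mb bins gave 4.83 for H3K4me3 and H3R8me2a, and put the ratio of H3K27me3 and H3K9me3 at 0.817, against 1.15 with expectation from the whole genome, so no direction is given for that pair. Requiring 50% of the island to be covered, H3K4me3 islands overlapped H3K27me3, H3K9me3 and H3R8me2a in 10.1%, 0.958% and 26.3%. H3K27me3 islands overlapped H3K4me3, H3K9me3 and H3R8me2a in 2.5%, 1.4% and 0.855%. H3K9me3 islands overlapped H3K4me3, H3K27me3 and H3R8me2a in 1.38%, 8.91% and 1.17%, and H3R8me2a islands overlapped H3K4me3, H3K27me3 and H3K9me3 in 67.2%, 3.43% and 0.582%. Read depth and peak height, which limit narrow and weak islands most, cannot be judged from positions.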
